A study of Mus musculus with 12 samples.

Results

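The 10 genes Actb, Actg1, Tmsb4x, Tmsb10, Cfl1, Pfn1, Tpm1, Myl6, Myl9 and Vim code for the actin filament, the proteins that bind and move it, and the intermediate filament protein vimentin. They were taken by name from a table of raw read counts of 55418 genes in 12 single cells, and 9 of the 10 were among the 9768 genes that reached 20 counts when all cells were summed. The cells were picked under a microscope for green fluorescence from uninjured, untreated Achilles tendons of mice on a C57BL/6 background, following collagenase digestion for 8 hours, and each was sequenced with the Smart-Seq2 full-length protocol, which has no molecular identifiers. Of the 12 cells, 6 were Tnmd-/- ScxGFP+ and 6 were Tnmd WT ScxGFP+. Tnmd codes for tenomodulin, a membrane glycoprotein of tendon and ligament, and is deleted in the whole animal in the knockout. ScxGFP is a reporter driven by regulatory elements of Scx, the tendon transcription factor scleraxis, and both genotypes carried it. Tnmd lies on the X chromosome, and the study's WT animals could be hemizygous males or homozygous or heterozygous females. The age of the animals is not given in the labels. Since no label ties a cell to an animal, each genotype counts as 1 sample, and no test between the genotypes was possible. All ratios below are therefore descriptions of these cells, and their intervals cover counting error only.

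Actin monomers assemble into polar filaments that grow at one end and are taken apart at the other. Beta-thymosins hold monomers in reserve, profilin feeds them to the growing end, and cofilin severs old filaments and returns their subunits to the pool. Tropomyosin lies along the filament and regulates which proteins reach it, while non-muscle myosin pulls filaments past each other through heavy chains that carry an essential and a regulatory light chain. Vimentin forms a separate network, the intermediate filaments typical of mesenchymal cells. Tendon fibroblasts use these filaments to sense and bear load along the collagen fibres.

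Total counts were 892713 to 10333351 in Tnmd-/- cells and 4516036 to 13613080 in WT cells. Tnmd itself had 8 counts over all Tnmd-/- cells and 10185 over all WT cells, of which 10178 were in WT cell 14. Scx had 3 counts in Tnmd-/- cells, all in cell 7, and 2074 in WT cells. Of the WT counts, 174, 1355 and 544 were in WT cells 1, 4 and 10. WT cells 2, 5 and 14 had 0, 1 and 0 counts of Scx. The summed level of 9 tendon fibroblast markers was 1572 to 76585 CPM (counts in 1000000 of the total) in Tnmd-/- cells and 25007 to 156771 CPM in WT cells. All 8 immune and all 5 red blood cell markers were at 0 in every cell, as were 7 of 8 mural cell markers, Acta2 among them. Skeletal muscle markers summed to at most 22.6 CPM and endothelial markers to at most 30.3 CPM, each in 1 Tnmd-/- cell. Mitochondrial genes held 51.8% of the counts of Tnmd-/- cell 3 and 1.75% to 7.30% in the other 11 cells. The study marked Tnmd-/- cells 9, 10 and 20 and WT cells 4, 5 and 10 as less degraded, and the other 3 cells of each genotype as more degraded. Values within these levels are given beside the pooled ones for the 10 genes and wherever a ratio of another gene turns or passes 2-fold in only some of them, where pooled means the counts of the 6 cells of a genotype summed and divided by their summed total.

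Together the 10 genes took 0.537% (95% Clopper-Pearson interval 0.535% to 0.540%) of all counts of the Tnmd-/- cells and 0.760% (0.758% to 0.762%) of those of the WT cells. The log2 ratio of Tnmd-/- over WT for this sum was -0.50 (-0.51 to -0.49). Among single cells the share ran from 0.164% to 0.648% in Tnmd-/- cells, with a median of 0.446%, and from 0.0632% to 1.58% in WT cells, with a median of 0.471%. The lowest and the highest of the 12 shares were thus both in WT cells. WT cell 4 alone held 48.5% of the WT counts of the 10 genes, and without it the log2 ratio of the sum was 0.075. The ratio was -0.43 among the less degraded and -1.05 among the more degraded cells. Within a cell, Actb and Actg1 made up between 8.30%, in Tnmd-/- cell 7, and 91.9%, in WT cell 5, of the counts of the 10 genes.

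Per kilobase of exon and over all 12 cells, Actb stood highest with 1357 CPM, followed by Actg1 with 615 and Myl6 with 149. Tmsb4x followed with 117 CPM per kilobase, Pfn1 with 88.7, Vim with 84.3 and Cfl1 with 54.9. Tmsb10 with 9.11, Tpm1 with 4.54 and Myl9 with 0.0194 CPM per kilobase stood lowest. The range over cells of each gene overlapped that of its neighbours in this order. Of the 10 genes, 3 had at least 10 counts in all 12 cells, namely Actb, Actg1 and Pfn1, while 2.18% of the 9768 genes did. Tmsb4x and Cfl1 reached 10 counts in 11 cells, Myl6 in 10, Tmsb10 in 9, Vim in 8, Tpm1 in 2 and Myl9 in none. With every cell thinned to the 892713 counts of the shallowest, Actb still reached 10 counts in 12 cells, Cfl1 and Pfn1 in 11, Myl6 in 10, Actg1 and Tmsb4x in 9, Vim in 7, Tmsb10 in 4 and Tpm1 in 2.

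**Figure D1:**
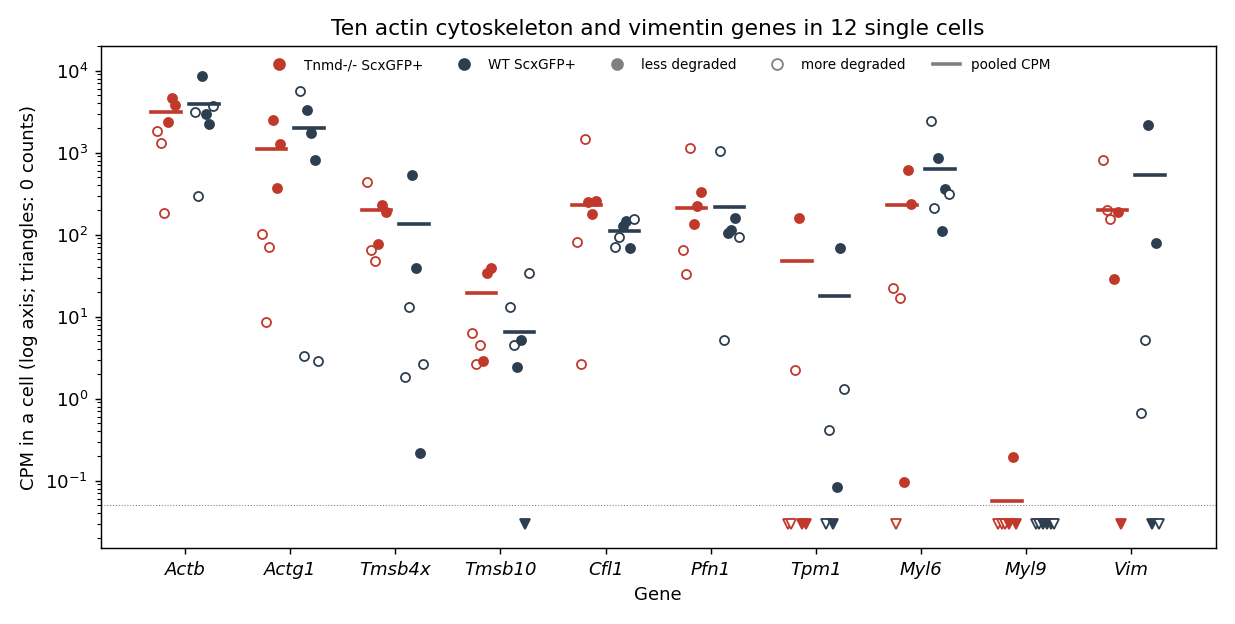
CPM of the 10 genes (log axis) in each of the 6 Tnmd-/- (red) and 6 WT (dark) cells, filled for less and open for more degraded cells, with triangles for 0 counts and bars for the pooled CPM of a genotype. The 2 genotypes overlap for each gene, Actb stays above 184 CPM in all 12 cells, and Tpm1 and Vim spread from 0 counts to 161 and 2186 CPM.

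In no gene of the 10 did all cells of a genotype lie above all cells of the other, which 4 of the 9768 genes did (0.041%). For splits of only some cells, as given below, the share of all genes was not counted. By a fixed rule of size, a pooled difference of at least 2-fold with 1 CPM added, 2 of the 9 genes that passed the filter were lower in Tnmd-/- cells (Myl6 and Vim), 3 were higher (Tmsb10, Cfl1 and Tpm1) and 4 lay between. The same rule called 34.9% of the 9768 genes lower and 35.5% higher, so that the 9 genes were close to the whole table in both directions. With TMM factors the split was 2 lower and 1 higher, beside 38.16% lower and 34.77% higher among all genes. With DESeq2 size factors it was 2 lower and 4 higher, beside 35.03% lower and 40.05% higher among all genes. The median log2 ratio of the 9 genes was -0.04, against 0.06 over the 9768 genes. Myl9 is not in these numbers, having only 2 counts.

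The actins were the most abundant of the 10 genes, and both were found in each cell. Actb, the gene of cytoplasmic beta-actin at chr5:142903115-142906754 (GRCm38, minus strand), had 1861, 1324, 185, 2390, 4632 and 3853 CPM in Tnmd-/- cells 1, 3, 7, 9, 10 and 20. In WT cells 1, 2, 4, 5, 10 and 14 it had 3108, 293, 8704, 2978, 2217 and 3717 CPM. It ranked between 15th and 722nd among the genes of a cell, and the low cells, Tnmd-/- cell 7 and WT cell 2, came from both genotypes. The pooled level was 3148 CPM in Tnmd-/- and 3955 CPM in WT cells, a log2 ratio of -0.33 (-0.34 to -0.32). WT cell 4 gave 51.4% of the WT counts, and without it the log2 ratio was 0.33. Among the less degraded cells the ratio was -0.35 and among the more degraded cells -0.62.

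Actg1, which codes for cytoplasmic gamma-actin at chr11:120345690-120348542 (minus strand), was far more uneven. It had 103, 8.64, 70.6, 2467, 368 and 1260 CPM in Tnmd-/- cells, in the order above, and 5593, 3.32, 3285, 1722, 824 and 2.88 CPM in WT cells. The WT cells thus held both extremes, and WT cells 2 and 14, with 16 and 13 counts, lay below all Tnmd-/- cells. The pooled log2 ratio was -0.86 (-0.88 to -0.85), from 1094 and 1992 CPM, and it was -1.93 without Tnmd-/- cell 9 and -0.49 without WT cell 1. It was -0.47 among the less degraded cells and -4.76 among the more degraded cells, where WT cell 1 held 33512 of 33541 WT counts. Of the Actg1 transcript that was compared with all others, 57.8% lies in stretches of at least 150 bases with at least 98% identity to 3 pseudogenes. Some reads from such stretches may not map to 1 place and would then not be counted, which was not tested. The 3 pseudogenes held 416 counts against 144830 for Actg1.

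A ratio of the 2 actins within a cell does not depend on the library total. Per kilobase, Actb was above Actg1 in 10 of the 12 cells, 5 of each genotype. In Tnmd-/- cell 9 the log2 ratio of Actb over Actg1 was -0.06 (-0.08 to -0.03) and in WT cell 1 it was -0.86 (-0.89 to -0.83). In the other cells it ran from 1.38 to 7.25 for Tnmd-/- and from 0.78 to 10.32 for WT. The pooled values were 1.51 in Tnmd-/- and 0.98 in WT cells, a difference of 0.53. That difference was 0.12 among the less and 4.14 among the more degraded cells, and over all cells it was -0.13 without Tnmd-/- cell 10, 1.74 without Tnmd-/- cell 9 and 0.12 without WT cell 1.

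Among the proteins that bind actin monomers, beta-thymosin 4 had a gene whose level spread far more over the WT than over the Tnmd-/- cells. Tmsb4x, at chrX:167207093-167209315 (minus strand), had 443, 64.5, 48.2, 76.7, 233 and 188 CPM in Tnmd-/- cells. In the WT cells it had 1.84, 13.1, 540, 39.3, 0.220 and 2.66 CPM. Thus 5 of the 6 WT cells lay below the lowest Tnmd-/- cell, with medians of 132 CPM in Tnmd-/- and 7.86 CPM in WT cells. The share of all genes with such a split was not counted, and WT cell 4 was the highest of all. Because that cell carried 92.3% of the WT sum, the pooled log2 ratio was only 0.54 (0.49 to 0.58), and it was 3.85 without WT cell 4. Among the less degraded cells it was -0.22 and among the more degraded cells 5.85, from 2495 against 86 counts. Leaving out any other cell gave log2 ratios of at least 0.11.

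Tmsb10, the gene of beta-thymosin 10 at chr6:72957347-72958748 (minus strand), was counted at a much lower level. It had 6.402, 2.66, 4.48, 2.90, 34.0 and 38.9 CPM in Tnmd-/- cells and 13.2, 4.56, 2.41, 5.16, 0 and 33.7 CPM in WT cells. Tnmd-/- cells 10 and 20 were above all WT cells, though only slightly above WT cell 14, and the medians were 5.44 and 4.86 CPM. The pooled log2 ratio was 1.59 (1.41 to 1.79), from 684 and 345 counts, and it was 3.28 among the less and -1.60 among the more degraded cells. With a cell left out it ran from 1.06, without Tnmd-/- cell 10, to 2.30, without WT cell 14, and it was 0.60 with equal weights for cells and 0.26 with TMM or DESeq2 factors. A near-identical copy covers 59.9% of its transcript and had 35 counts. Within cells Tmsb4x was above Tmsb10 per kilobase in all 6 Tnmd-/- cells, by 2.17 to 6.01 on the log2 scale. In the WT cells it was above in cells 2, 4 and 5, by 1.41, 7.71 and 2.82, and below in cells 1 and 14, by -2.95 and -3.77. WT cell 10 had 3 counts of Tmsb4x and 0 of Tmsb10, at the floor of 3 counts. The pooled log2 ratio of Tmsb4x over Tmsb10 went the other way, with 3.24 in Tnmd-/- and 4.30 in WT cells, and the difference of -1.06 turned to 2.51 without WT cell 4.

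Profilin 1 and cofilin 1 were found in nearly every cell. Pfn1, at chr11:70651850-70654644 (minus strand), had 65.7, 33.2, 1139, 135, 225 and 330 CPM in Tnmd-/- cells and 1036, 5.18, 105, 115, 161 and 93.0 CPM in WT cells. A single cell of each genotype exceeded 1000 CPM, Tnmd-/- cell 7 and WT cell 1, and WT cell 2 was lowest. The pooled levels were 209.6 and 215.9 CPM, a log2 ratio of -0.04 (-0.08 to 0.00), which was 0.90 without WT cell 1. It was 0.76 among the less and -1.24 among the more degraded cells.

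Cfl1, the gene of cofilin 1 at chr19:5490455-5495201 (plus strand), was the most even gene in WT cells and among the least even in Tnmd-/- cells. The 6 WT cells had 71.1, 93.0, 129, 146, 68.2 and 153 CPM, a 2.25-fold span. The Tnmd-/- cells had 81.3, 2.66, 1456, 254, 181 and 257 CPM, a 548-fold span. Tnmd-/- cells 7, 9, 10 and 20 were above every WT cell and Tnmd-/- cell 3, with 4 counts, was below every WT cell. How often all genes show such a split was not counted. The pooled level was 227 CPM in Tnmd-/- and 110 CPM in WT cells, a log2 ratio of 1.05 (1.00 to 1.10). With a cell left out this ratio lay between 0.83, without Tnmd-/- cell 7, and 1.20, and it was 1.01 among the less and 1.14 among the more degraded cells. It depended on the scale, being 0.32 as a difference of mean log2(CPM + 1), 0.51 with ComBat, 1.66 with TMM and 3.92 with DESeq2 size factors. Of the exon bases of Cfl1, 16.5% overlap Snx32, which had 791 counts over all cells. The log2 ratio of Cfl1 over Pfn1 per kilobase was between -0.60 and 0.67 in 5 of the 6 Tnmd-/- cells and -3.89 in cell 3. In the WT cells it ran from -4.11, in cell 1, to 3.92, in cell 2.

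Tpm1, the gene of tropomyosin alpha-1 at chr9:67022590-67049406 (minus strand), was a gene of 2 cells. Tnmd-/- cell 9 had 1666 counts (161 CPM) and WT cell 10 had 932 counts (68.5 CPM). These were 99.88% and 99.04% of the counts of their genotype. The other Tnmd-/- cells had 0, 0, 2, 0 and 0 counts and the other WT cells 0, 2, 0, 1 and 6. The pooled log2 ratio of 1.43 (1.32 to 1.55) compared these 2 cells, and it was -7.77 without Tnmd-/- cell 9 and 7.72 without WT cell 10. Both cells were among the less degraded ones, where the log2 ratio was 1.31. Among the more degraded cells it was -1.01, from 2 against 8 counts.

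Of the myosin light chains, Myl6, which codes for the essential light chain of non-muscle and smooth muscle myosin at chr10:128490860-128494145 (minus strand), had the largest WT excess among the 10 genes. It had 22.4, 0, 16.8, 0.0968, 616 and 233 CPM in Tnmd-/- cells and 2455, 214, 853, 109, 355 and 309 CPM in WT cells. Thus 4 of the 6 Tnmd-/- cells lay below all WT cells, with medians of 19.6 and 332 CPM. How often all genes show such a split was not counted. Tnmd-/- cell 9 had 1 count of Myl6 at a total of 10333351 counts, and Tnmd-/- cell 3 had none. The pooled log2 ratio was -1.47 (-1.50 to -1.43), a level 2.77-fold higher in WT cells. It was negative with any cell left out, from -3.20 without Tnmd-/- cell 10 to -0.82 without WT cell 1. It was -0.61 among the less degraded cells, short of 2-fold, and -6.01 among the more degraded cells, from 134 against 17134 counts. Copies of at least 98% identity cover 25.4% of its transcript and held 246 counts against 41972 for Myl6.

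Myl9, a regulatory light chain of smooth muscle and non-muscle myosin at chr2:156775420-156781658 (plus strand), had 2 counts in Tnmd-/- cell 10 and 0 counts in the other 11 cells. At the summed depth a count of 3 would be 0.0855 CPM in Tnmd-/- and 0.0561 CPM in WT cells, so both genotypes were at or under the floor and no ratio was formed. The mural markers, smooth muscle markers among them, were at or near 0 in the same cells, with a sum of at most 0.401 CPM.

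Vim, at chr2:13573927-13582826 (plus strand), was the gene in which the pooled ratio and the cells differed most. It had 823, 201, 153, 28.5, 187 and 0 CPM in Tnmd-/- cells and 0.668, 5.18, 2186, 0, 78.3 and 0 CPM in WT cells. At least 10 counts were found in 5 Tnmd-/- and 3 WT cells, and the medians were 170.0 and 2.92 CPM. WT cell 4, with 27266 counts, held 96.1% of the WT sum and gave a pooled log2 ratio of -1.41 (-1.44 to -1.37), that is, a 2.65-fold higher level in WT cells. Without that cell the log2 ratio was 2.91, without Tnmd-/- cell 1 it was -2.57, and the difference of mean log2(CPM + 1) over all 12 cells was 2.71 with Tnmd-/- higher. The ratio was -3.20 among the less degraded cells and 8.37 among the more degraded cells, from 4810 against 29 counts. The 3 cells with 0 counts, Tnmd-/- cell 20 and WT cells 5 and 14, had totals of 6742665, 12019550 and 4516036, at which 3 counts would be 0.445, 0.250 and 0.664 CPM. In these cells Actb per kilobase was at least 15333-fold, 21127-fold and 9907-fold above Vim, taking Vim at 3 counts. In WT cell 1, with 4 counts of Vim, the fold was 8241, and in Tnmd-/- cell 7 it was 2.13.

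**Figure D2:**
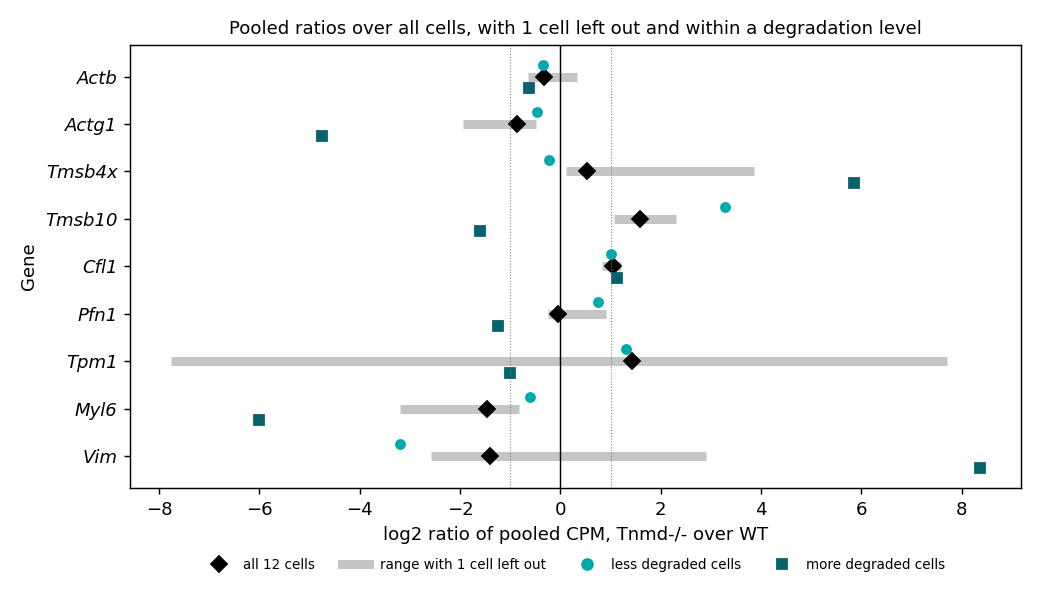
Pooled log2 ratio of CPM, Tnmd-/- over WT, for 9 of the 10 genes (diamonds), with the range when any 1 cell is left out (grey bars) and the ratio within the less (circles) and more (squares) degraded cells; dotted lines mark 2-fold. Cfl1 stays between 0.83 and 1.20 with a cell left out, whereas Tpm1 spans -7.77 to 7.72 and Vim -2.57 to 2.91.

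Several of the 10 genes belong to small families of paralogues, and the paralogue that was counted often differed between cells. The families were drawn up after the values had been seen, and shares are of the counts per kilobase within a family and a cell. The leading paralogue held a median of 74.0% of the family in the actins, 92.0% in the beta-thymosins, 81.9% in the cofilins with destrin, 99.9% in the profilins, 77.0% in the tropomyosins and 99.9% in the regulatory light chains. Dstn, which codes for the actin-depolymerizing factor destrin, led over Cfl1 and Cfl2 in 9 cells, though in WT cells 1 and 10 it was close to Cfl2, at 48.0% against 47.8% and 40.1% against 37.2%, and in Tnmd-/- cell 3 it had 13 counts. Cfl1 led in Tnmd-/- cells 7 and 9 and WT cell 14 with 98.7%, 91.9% and 99.6%. In Tnmd-/- cell 9 and WT cell 14 Dstn had 156 and 2 counts, and in Tnmd-/- cell 7 it had 7. Pfn1 led over Pfn2 in 11 cells, the exception being WT cell 10 with 69.8% Pfn2. Pfn2 reached 10 counts in 1 Tnmd-/- and 3 WT cells.

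Tropomyosin showed the most varied choice. With no minimum count set for a lead, Tpm4 led in 6 cells, Tpm2 in 3 and Tpm3 in 3, while Tpm1 led in none and never exceeded 5.17% of the family. In Tnmd-/- cell 3 the lead of Tpm4 rests on 5 counts against 3 of Tpm2 and 3 of Tpm3, and in Tnmd-/- cell 7 that of Tpm2 rests on 28. The 2 cells with Tpm1 were led by Tpm2, with 74.9% in Tnmd-/- cell 9, and by Tpm4, with 50.3% in WT cell 10. In WT cell 14 Tpm3 made up 98.8%, and in WT cell 1 Tpm2 made up 84.4%. Among the regulatory light chains Myl12a led in all 12 cells with 80.8% to 100% and reached 10 counts in 10 cells, so that Myl12a was counted in the cells where Myl9 was not. Myl12b reached 10 counts only in WT cells 4 and 5, with 1276 and 356 counts. The union of exons was used as length, and a gene with many isoforms such as Tpm1 has a longer union than any of its transcripts, which lowers its value per kilobase.

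**Figure D3:**
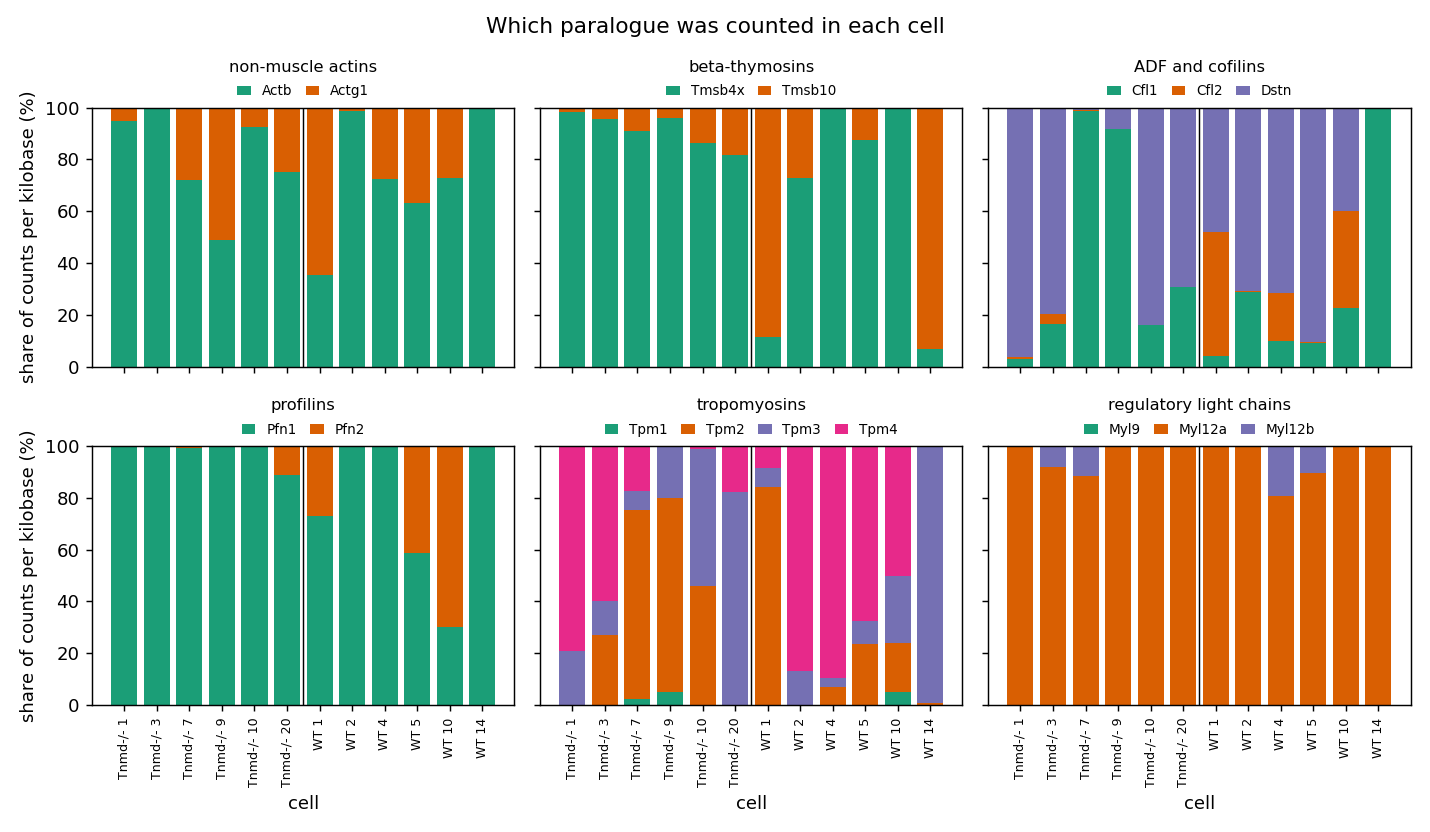
Share of counts per kilobase (in percent) held by each paralogue of 6 families in each of the 12 cells, Tnmd-/- cells left and WT cells right of the line. Actb leads in 10 cells, Tmsb4x in all 6 Tnmd-/- cells and 4 WT cells (in WT cell 10 from 3 counts), Pfn1 in 11 cells and Myl12a in 12, and the leading tropomyosin is Tpm4 in 6 cells and Tpm2 or Tpm3 in 3 each.

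Other genes of the actin cytoskeleton were taken from 114 symbols sorted into groups by function, of which 85 passed the filter of 20 counts. By the rule of size 35 of the 85 were lower and 23 higher in Tnmd-/- cells, beside 34.9% lower and 35.5% higher among all 9768 genes, and these shares hold for the groups below as well. Between the limits lay 27, and the median log2 ratio was -0.58, against 0.06 over the 9768 genes. Within the less degraded cells the median was -0.29, and within the more degraded it was -0.11. All 3 members of the ERM group, which link filaments to the membrane, were lower in Tnmd-/- cells. Moesin (Msn) had a log2 ratio of -1.04 and at least 10 counts in 11 cells, but was short of 2-fold among the less degraded cells, at -0.63, and without WT cell 1, at -0.77. Radixin (Rdx) had -1.56, with 81.6% of the Tnmd-/- counts in cell 20, and the ratio was -3.70 without that cell and -1.08 without Tnmd-/- cell 9. Ezrin (Ezr) had 6 counts in Tnmd-/- cells and 8189 in WT cells, and only 2 WT cells held at least 10. Of 9 Arp2/3 complex genes, whose products start branched filaments, 4 were lower and 2 higher, and Arpc5, the highest per kilobase, had a log2 ratio of -0.07, with 0.01 among the less and -4.16 among the more degraded cells, and leaving out WT cell 4 gave 0.87. Among nucleation promoting factors and formins 7 of 14 were lower and 4 higher, among focal adhesion genes 4 of 11 and 3, and among crosslinkers 3 of 8 and 1. Capping and severing proteins gave 3 of 9 in each direction, monomer-binding proteins 2 of 7 in each, and non-muscle myosin II genes 3 of 7 lower and 2 higher.

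Gsn, the gene of the filament-severing protein gelsolin, had the highest pooled level of the 114 genes, with 2736 CPM per kilobase for Tnmd-/- and 3718 for WT, above the 1175 and 1476 CPM per kilobase of Actb. In Tnmd-/- cells 3 and 20 Gsn was far below Actb, with 68 against 1992 and 85 against 25982 counts. The log2 ratio of Gsn was -0.44, and it was -0.97 among the less and 1.20 among the more degraded cells. Without WT cell 4, which held 50.4% of the WT counts, it was 0.19. Among the largest deficits in Tnmd-/- cells, where WT reached 50 CPM and 4 of its 6 cells held 10 counts or more, were those of Pdlim1, a linker of alpha-actinin, with 19 against 15086 counts, and Cfl2, the second cofilin, with 76 against 11003. Arpc4, an Arp2/3 subunit, had 11 against 6595 counts, and Rac1, a small GTPase that drives branched actin, 636 against 9782. Not every WT cell had these genes. WT cell 14 had 0, 0, 0 and 2 counts of Pdlim1, Cfl2, Arpc4 and Rac1, and WT cell 2 had 0, 10, 0 and 2322. Of the Tnmd-/- counts of Rac1, 75.3% were in cell 10. Each log2 ratio stayed past 2-fold within both degradation levels. With any cell left out the ratios were at most -8.46, -5.72, -8.12 and -3.04. The largest excesses by the same rule were smaller, but the rule does not treat the genotypes alike. Tnmd-/- cells 3 and 7 reach 10 counts less easily, with totals of 1504775 and 892713 against at least 4516036 in WT cells. It also left out large ratios in both directions where too few cells held 10 counts. The excesses it kept were those of Actr2, an Arp2/3 subunit, with a log2 ratio of 1.55, Myl12a with 1.32 and Tpm3 with 0.91. The crosslinker alpha-actinin 4 (Actn4) had 0.68 and Arhgdia, an inhibitor of small GTPases, 0.35. Most of these excesses turned on a cell or a degradation level. Actr2 was 0.17 among the less and 7.21 among the more degraded cells and 0.57 without Tnmd-/- cell 1. Tpm3 was 1.54 and -0.33 within the levels, and Actn4 was 0.92 and -0.95, and -0.23 without Tnmd-/- cell 9. Arhgdia was -0.21 among the less degraded cells and -0.27 without Tnmd-/- cell 1. For Myl12a, 3 Tnmd-/- cells were above all WT cells and its ratio lay between 1.07 and 1.75 with a cell left out, but it was 1.41 among the less and 0.30 among the more degraded cells.

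The genes of contractile muscle were near 0. Acta2, the smooth muscle actin used as a mark of myofibroblasts, and Des, the muscle intermediate filament desmin, had 0 counts in all 12 cells. Acta1, the skeletal muscle actin, had 9 counts in Tnmd-/- cells, 6 of them in cell 7, and 1 in WT cells. In all, 29 of the 114 genes had under 20 counts and 20 had none. Among those with none, named here after their values were seen, were the smooth muscle genes Tagln and Cnn1 and Srf, the serum response factor that activates many actin genes. Its coactivators were hardly counted either, with 1 count of Mrtfa and 72 of Mrtfb, all in Tnmd-/- cells. Tnmd-/- cell 3 alone held 67 of the counts of Mrtfb.

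**Figure D4:**
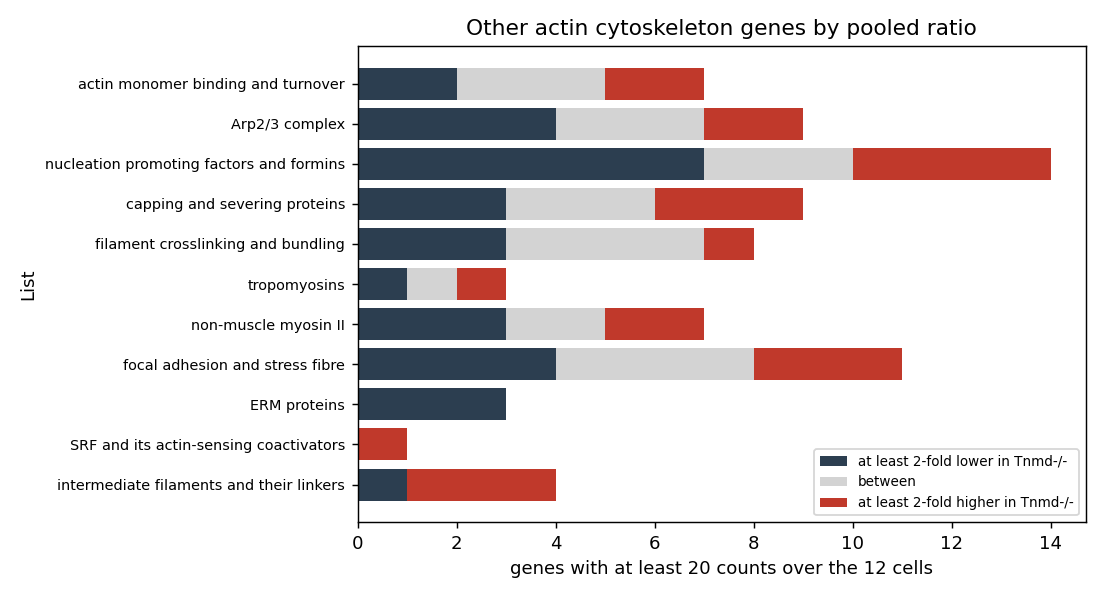
Number of genes in groups of other actin cytoskeleton genes that were at least 2-fold lower (dark), between (grey) or at least 2-fold higher (red) in the pooled Tnmd-/- cells, among genes with at least 20 counts. All 3 ERM genes are lower (Msn not by 2-fold within the less degraded cells), and 7 of 14 nucleation promoting factors and formins are lower and 4 higher.

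The letters that serum response factor is known to bind, the CArG box (CC, then 6 of A or T, then GG), were searched in the RefSeq promoter windows of GRCm38.p6, which run from 250 bases before to 50 bases after a start. The pattern is its own reverse complement, so that 1 search covers both strands. Windows were found for 9 of the 10 genes and not for Actb. The box was in 1.63% of 32851 windows and in 1.81% of the 27025 genes, and in 3 of the 9 genes, Actg1, Myl6 and Myl9. These 3 stretches are shown with the box in capitals, since they set the 3 genes apart from the other 6 in sequence.
Actg1, chr11:120348561-120348600, minus strand, box 90 bases before the start: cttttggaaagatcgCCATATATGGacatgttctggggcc
Myl6, chr10:128493035-128493074, minus strand, box 50 bases before the second of its starts and inside the gene: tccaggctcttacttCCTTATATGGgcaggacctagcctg
Myl9, chr2:156775288-156775327, plus strand, box 161 bases before the start: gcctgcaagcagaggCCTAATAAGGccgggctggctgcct
A match describes the letters and is not evidence of binding. The 3 genes did not go together in these cells: Actg1 was found in 12 cells, Myl6 reached 10 counts in 10 and Myl9 in none.

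Among the intermediate filament genes other than Vim, 4 of 12 passed the filter, and 3 were higher and 1 lower in Tnmd-/- cells. Lmna, the gene of nuclear lamins A and C, had a log2 ratio of -2.27, with 59.1% of the WT counts in WT cell 4, and -1.36 without that cell. Plec, the gene of the linker plectin, had a log2 ratio of 1.58, which was 0.35 among the less and 2.74 among the more degraded cells and 0.90 without Tnmd-/- cell 1. Nes, the gene of nestin, had 955 counts in Tnmd-/- cell 9 and 1 in WT cells. The keratins Krt5, Krt8, Krt14 and Krt18, named after their values were seen, had 0 counts. The tubulins, the subunits of microtubules, gave 3 higher and 3 lower of 10 genes and a median log2 ratio of 0.16. Tubb4b had a log2 ratio of 1.99, and 5 of its 6 Tnmd-/- cells were above every WT cell. Tnmd-/- cell 20, with 1 count (0.148 CPM), was below every WT cell. The share of all genes with such a split was not counted. The ratio of Tubb4b was 2.01 among the less and 2.00 among the more degraded cells, and it lay between 1.63 and 2.33 with any cell left out. Tuba1b and Tuba1c had log2 ratios of 0.36 and -0.04. That of Tuba1c was 0.87 among the less and -7.62 among the more degraded cells.

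Among cells, Actb, Actg1, Tmsb4x, Cfl1, Pfn1 and Myl6 went together only in part, and no pair with another of the 10 genes was computed. Over the 12 cells the Spearman rank correlation of CPM was 0.69 for Actb and Myl6, 0.50 for Actb and Actg1 and 0.49 for Cfl1 and Pfn1, and it was -0.15 for Tmsb4x and Myl6. The mean of log2(CPM + 1) over the 10 genes was highest in WT cell 4, at 7.02, and lowest in Tnmd-/- cell 3 and WT cell 2, at 3.62 and 3.67. Of 515 other protein-coding genes that reached 10 counts in 10 or more cells, the 5 most like this mean were Ppp1r15a with a rank correlation of 0.87, Rpl41 with 0.86, Myl12a with 0.85, Slc3a2 with 0.81 and Col6a3 with 0.77, the last tied with Eif5a. The points share library depth and quality: the same mean had a rank correlation of 0.50 with the total counts, 0.44 with the number of genes found and -0.59 with the mitochondrial share.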

How the data were processed

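Single cells were prepared with Smart-Seq2. Per the study's methods and the submitters' processing notes, the authors trimmed reads with BBDuk, removed foreign reads with BioBloom Tools, aligned to GRCm38 (Ensembl 96) with STAR 2.5.1b and counted uniquely mapped exonic reads with featureCounts of Subread 2.0.0. The deposited values are raw counts per gene and cell with the gene's exon length. The strand setting of counting is not given in the sources used here, so a read in an exon shared by 2 genes may come from either. The authors' later correction for degradation with ComBat is not in these counts.

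Groups came from the labels and the degradation level from the study's annotation of its cells. CPM were counts over the cell's total times 1000000, and levels between genes were compared per kilobase of the deposited length. A pooled ratio compared summed counts over summed totals, with an exact 95% Clopper-Pearson interval of the conditional share. Counts past 2-fold and medians used genes with at least 20 counts and 1 CPM added. With 1 sample per genotype no test, p-value or standard error was computed, and PCR reads are not independent molecules, as no molecular identifiers were used. The ratio and interval code was tested on simulated data. The members and gene lists were chosen with earlier results of these data known. Named are the 10 genes, Tnmd, Scx, Acta2, Des, at most the 3 highest others per kilobase of a list, the 5 largest ratios of other actin genes in each direction (50 CPM or more in the higher genotype, and 10 counts in 4 of its 6 cells), and the 5 genes most like the mean profile. A gene and a gene group that these rules cover are not reported here. Of the 9 marker lists those not in the report were cartilage, glia and adipocyte. Cartilage markers summed to at most 1330 CPM (Tnmd-/- cell 9), glia to at most 173 CPM (WT cell 10, with Sox10 at 0) and adipocyte to at most 0.622 CPM. Their part in the results was not tested. Coordinates came from GENCODE M21, copies from blastn 2.17.0 of a gene's transcript against all transcripts, promoter windows from RefSeq. Alternatives used edgeR 4.0.16 (TMM), DESeq2 1.42.0 (size factors) and sva 3.50.0 (ComBat) in R 4.3.3. Other steps ran in Python 3.11.15 with scipy 1.17.1.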

Additional observations from a re-analysis of the deposited data

Results flagged for a closer look

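In 22 groups of 6 cells (each of the 10 genes and their sum, within each genotype), a cell was set apart where its gap to the next cell took up most of the range of the group. Chance meets this rule in about 1 in 20 groups of normally distributed values. With many values at 0 that rate need not hold here, and a group with a single cell above 0 always meets the rule. The rule was met by 3 values on the log2(CPM + 1) scale. Tpm1 was 7.34 in Tnmd-/- cell 9, where the next Tnmd-/- cell had 1.70. Tpm1 was also 6.12 in WT cell 10, where the next WT cell had 1.22. Myl9 was 0.26 in Tnmd-/- cell 10, from 2 counts, where the other Tnmd-/- cells had 0. The pooled ratio of Tpm1 rests on the first 2 of these cells, and that of Myl9 was not formed. The cause was not tested.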

How the results depend on the processing

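The log2 ratio of the summed level of the 10 genes, -0.50, was -0.67 with equal weights for cells, -0.24 as a difference of mean log2(CPM + 1), -0.78 with TMM factors, 0.54 with DESeq2 size factors, -0.46 without mitochondrial genes in the totals, -0.43 and -1.05 within the less and more degraded cells, -0.44 without the 2 shallowest cells (Tnmd-/- cells 3 and 7, an alternative chosen after seeing the data) and -0.73 to 0.075 with each cell left out. Their median, -0.04, was 0.35, 0.32, 0.24 and 0.89 under the first 4 of these, -0.22 and -0.62 within the levels, -0.17 without the 2 shallowest cells, 0.18 with ComBat, 0.019 with a filter of at least 1 count and -0.25 to 1.02 with a cell left out. These scalings put the median of all genes at -0.20 with TMM and 0.16 with DESeq2 factors, against 0.06. The 2 genes at least 2-fold lower became 1 with mean log2, in the less degraded cells and with ComBat. The shares of all genes lower were 22.3%, 31.2% and 20.0% in these settings. The count was 4 in the more degraded cells, beside 25.6% of all genes, and 1 to 3 with a cell left out. The 3 genes higher became 1 with TMM, beside 34.8% of all genes, and 1 to 5 with a cell left out. Shares of all genes with a cell left out were not counted. Vim turned to 2.71 with mean log2, 1.40 with DESeq2 factors, 8.37 in the more degraded cells and -2.57 to 2.91 with a cell left out. Tmsb10 turned to -1.60 and Tpm1 to -1.01 in the more degraded cells, and Tpm1 was -7.77 to 7.72 with a cell left out. Actb over Actg1, a difference of 0.53, was 0.12 and 4.14 within the levels, 0.51 without the 2 shallowest cells, -0.24 as a mean over cells and -0.13 to 1.74 with a cell left out. Tmsb4x over Tmsb10, -1.06, was -3.50 and 7.45 within the levels, 2.56 as a mean over cells and -1.89 to 2.51 with a cell left out. The 3 genes with at least 10 counts in every cell became 5 with at least 1 count, 1 after thinning and 3 to 4 with a cell left out. Of the other actin genes, 9 in place of 23 were higher and 27 in place of 35 lower with ComBat, which also took the shares of all genes from 35.5% to 16.3% higher and from 34.9% to 20.0% lower, and with a cell left out 15 to 27 were higher and 29 to 37 lower. ComBat gave no summed level. The cause of these changes was not tested. No paired analysis was possible because the labels' numbers only name picked cells and no test was made. Depth limits Myl9 to the floors of the genotypes and the 0 counts of Vim to those of the 3 cells.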
